A study of Rattus norvegicus with 42 samples.

Results

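Elongating RNA polymerase 2 (Pol2) at the peak of a corticosterone (CORT) pulse was measured in rat liver by ChIP-Seq with an antibody to Pol2 phosphorylated at serine 2 (pSer2 Pol2). The comparison took the 2 pSer2 Pol2 libraries of the pulse peak and the 2 libraries of vehicle infusion, 4 of the 10 pSer2 Pol2 libraries and of the 42 libraries in the series. Of 60999 listed regions, 38315 had a value other than 0 in at least 1 library and were tested, and these regions belonged to 16568 of 26426 listed genes. The rats were adrenalectomised male Sprague-Dawley animals whose age is not given in the sources used here, and each ChIP library pooled the livers of 6 rats. PEAK_140 was taken 140 min into a pulsatile CORT infusion, at a pulse peak, and NADIR_180 at 180 min, in the trough after it. CONS_140 and CONS_180 were taken at the same times of a constant CORT infusion. VEH comprised 1 library at 140 min and 1 at 180 min of pulsatile vehicle infusion, so that the group mixes both times. CORT is the main glucocorticoid of the rat, and adrenalectomy removes its natural source in every group.

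Pol2 carries a long tail of repeated heptapeptides, and serine 2 of these repeats is phosphorylated while the enzyme moves through the body of a gene. The level of pSer2 Pol2 within a gene is therefore used as a measure of ongoing transcript elongation. Glucocorticoids act through the glucocorticoid receptor (GR), a ligand-dependent transcription factor that in liver is known for the induction of enzymes of amino acid breakdown and glucose production, and for the restraint of inflammation.

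The tissue label was checked against marker genes in the RNA-Seq libraries of the same study. All 12 hepatocyte markers were counted, with a summed level of 148875 to 202782 CPM (counts scaled to library size) over 12 libraries, and Alb was the most abundant. The summed levels were 378 to 688 CPM for 11 Kupffer cell or macrophage markers, 340 to 462 CPM for 8 endothelial markers and 476 to 796 CPM for 9 stellate cell or fibroblast markers. Markers of cholangiocytes summed to 10.6 to 18.9 CPM, of lymphocytes to 37.2 to 76.7 CPM, of erythroid cells to 92.4 to 221 CPM and of neutrophils to at most 2.86 CPM. In pSer2 Pol2, 12 of 12 hepatocyte markers were tested, and their median log2 change at PEAK_140 against VEH was 0.27 with 1 marker, Ttr, lowered. Of 6 tested stellate cell or fibroblast markers 1, Pdgfrb, was lowered, while the median change of the 6 was -0.04 at a median value of 0.52, where tags are few. The log2 of their summed level, in which Pdgfrb was the called member, was 4.93 and 5.00 for PEAK_140 against 8.03 and 7.58 for VEH. Pdgfrb alone changed by -3.43 (SE 0.53, limma adjusted p = 0.0112). The part of these cells in the lowered genes was not tested. No marker of the other 6 cell types was called by limma. In a whole-tissue sample, fewer cells of a type and less Pol2 per cell cannot be told apart.

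Depth was 5666339 and 6421773 tags for PEAK_140, and 7953030 and 5904816 tags for VEH, within a range of 4938473 to 9326927 over the 10 libraries. Values are on a log2 scale, normalised to total tags after subtraction of input tags, and where tags are few they are shrunk to the average of that region. A change that starts or ends at few tags is therefore not a ratio of tags. The library medians lay between 2.36 and 2.56 in 9 libraries, and CONS_140 replicate 1 stood apart at 2.84. This library entered the shared estimate of spread.

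At the pulse peak 63 genes were raised, 0.380% of the genes tested, and 105 were lowered, 0.634%, so that 168 of 16568 genes (1.01%) were called. The raised genes were led by Zbtb16, Etnppl and Lpin1 and included 7 members of a list named glucocorticoid-induced regulators. The lowered genes were led by the fatty acid desaturases Fads2 and Fads1 and included 8 genes of sterol synthesis and uptake. A list named amino acid breakdown had members called in both directions, with 5 raised, Etnppl among them, and 4 lowered. A call required, in any region of the gene, an adjusted p (Benjamini-Hochberg) below 0.05 in limma and a change above 1.5-fold, and a called gene is described by the called region with the greatest change. The 379 called regions were 0.989% of those tested, and limma gave an unadjusted p below 0.05 in 1921 regions. Counted by gene, that p lay below 0.05 for 233 genes with a higher and 575 with a lower value at PEAK_140. In the upper 10% of genes by mean value, 163 of 1657 were higher and 285 lower by that p. Counts of list members by unadjusted p are to be read beside these. The median absolute log2 change was 2.67 (range 1.45 to 6.35) in raised genes and 2.31 (range 1.28 to 6.81) in lowered genes. Several regions were called in 58 of the raised and 97 of the lowered genes, and 61 and 99 of the genes were protein-coding. Called genes were mostly high in pSer2 Pol2, with 53 raised and 80 lowered genes in the upper 10% of genes by mean value, where 8.03% were called.

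The number of calls rested on the spread shared by the 10 libraries and on each of the 4 libraries compared. In a limma fit of the 4 libraries alone 0 genes were called, with 1923 regions at an unadjusted p below 0.05. Without the VEH library at 140 min 42 genes were raised and 9 lowered, and without that at 180 min 6 were raised and 4 lowered. Without PEAK_140 replicate 1 the counts were 13 raised and 16 lowered, and without replicate 2 they were 16 and 39. Without CONS_140 replicate 1, a choice made after seeing the data, 22 genes were raised and 63 lowered. Of the 83 called genes in the named set, 18 were still called without PEAK_140 replicate 1, 31 without replicate 2, 23 without VEH at 140 min, 6 without VEH at 180 min and 33 without CONS_140 replicate 1, and 0 changed direction in any of these fits. With each library centred on its median 135 genes were raised and 207 lowered, in the upper 50% of regions by mean 102 were raised, and at an adjusted p below 0.01 the counts were 28 and 36. The named genes called whichever of the 4 libraries was left out were Ces1f, Etnppl, Insig2, Lpin1, Tsc22d3 and Zfp354a.

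**Figure D1:**
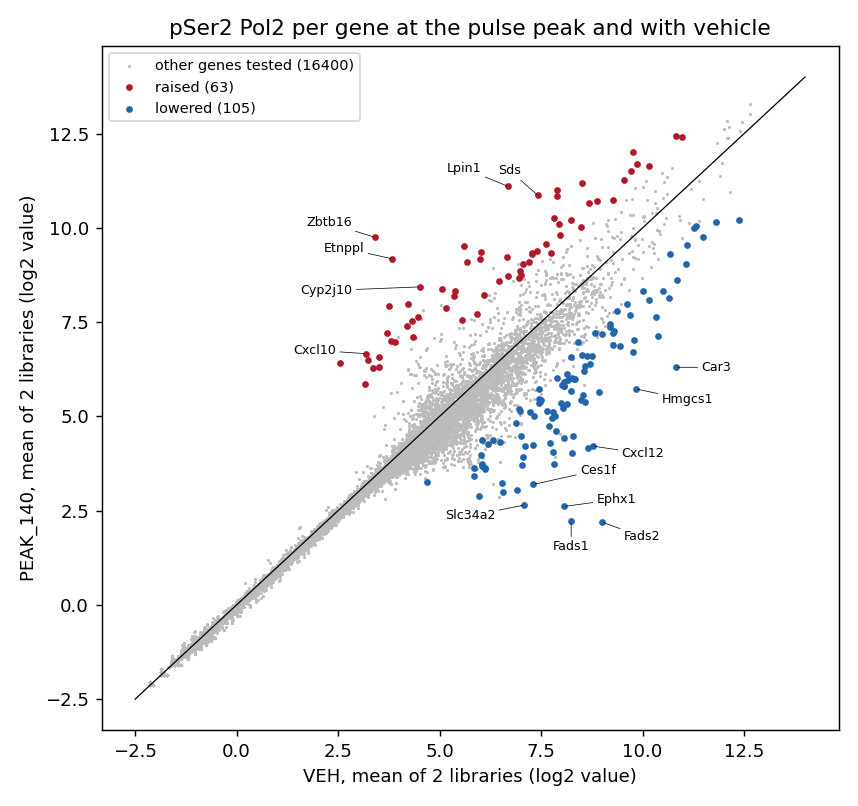
Mean pSer2 Pol2 value of each of 16568 genes in the 2 VEH libraries (x axis, log2 value) and in the 2 PEAK_140 libraries (y axis, log2 value). Red points are the 63 raised genes, blue points the 105 lowered genes and grey points the other genes, and the line marks equal values. Zbtb16 lies farthest above the line, at 3.40 in VEH and 9.75 in PEAK_140, and Fads2 farthest below it, at 2.20 in PEAK_140 and 6.81 higher in VEH.

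Glucocorticoid-induced regulators were the list with the most raised members, 7 of 21 tested, with 2 lowered and a median log2 change of 1.39 against -0.05 over all genes tested. Zbtb16 encodes a zinc finger transcription factor, and its called region covered chr8:53136953-53146953 on rn6. Its log2 values were 9.77 and 9.73 at the pulse peak, against 3.96 and 2.84 with vehicle, a change of 6.35 (SE 0.63, limma adjusted p = 0.00128). The PEAK_140 libraries differed by far less than the gap to VEH. Tsc22d3 encodes GILZ, a leucine zipper protein that mediates anti-inflammatory actions of glucocorticoids (chrX:111884295-111887906). It read 9.18 and 8.99 at PEAK_140 against 5.64 and 5.71 with vehicle (change 3.41, SE 0.33, adjusted p = 0.00121). Per1, a repressor of the circadian clock, rose from 4.79 and 3.03 to 7.17 and 6.76 (change 3.05, adjusted p = 0.0268). It was the 1 called member of 19 clock genes. Nfkbia, the inhibitor of NF-kappaB, rose by 2.05 (SE 0.34, adjusted p = 0.0146), the metallothionein Mt2A by 1.74 (SE 0.32) and Zfp36, a protein that promotes decay of cytokine mRNA, by 1.54 (SE 0.30). The VEH and PEAK_140 values of these 3 genes did not overlap, which also held in all other called genes and in 16.6% of all genes tested. The remaining raised member of the list, Lcn2, is given below with inflammatory genes, and its constant CORT values lay near those of VEH. The lowered members were Serpina6, the plasma carrier of corticosterone, and Pdk4, a kinase that inhibits pyruvate dehydrogenase. Serpina6 read 4.90 and 5.98 at PEAK_140 against 8.70 and 8.26 in VEH (change -3.04, adjusted p = 0.0213). Pdk4 read 8.58 and 9.52 against 11.11 and 11.04 (change -2.03, adjusted p = 0.0119).

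The list named amino acid breakdown held 5 raised and 4 lowered genes among 32 tested, with a median change of 0.01. Etnppl, a member of the list, encodes the lyase that breaks down phosphoethanolamine rather than an amino acid (chr2:235738416-235748416). Its values were 8.99 and 9.37 at PEAK_140 and 4.71 and 2.97 in VEH, a change of 5.34 (SE 0.49, adjusted p = 0.00121). Sds, serine dehydratase, which turns serine into pyruvate, read 11.16 and 10.56 against 7.75 and 7.09 (change 3.44, SE 0.36, adjusted p = 0.0014). Tdo2, the dioxygenase that starts tryptophan breakdown, was already high with vehicle, at 9.73 and 9.81, and stood at 11.90 and 12.15 at the peak (change 2.25, SE 0.23). Aass, which starts the breakdown of lysine, rose by 2.05 (SE 0.33, adjusted p = 0.0129). Got1, the cytosolic aspartate aminotransferase, rose by 1.83 (SE 0.31, adjusted p = 0.0195) and was also the 1 called gene of 15 in gluconeogenesis. The 4 lowered enzymes were Oat (change -2.52), Hal (-2.35), Amdhd1 (-2.30) and Kmo (-2.16). Hal and Amdhd1 belong to the breakdown of histidine, Kmo to that of kynurenine and Oat to that of ornithine. Oat was uneven between the PEAK_140 libraries, at 5.32 and 3.63, with 7.09 and 6.90 in VEH. Tat, tyrosine aminotransferase, read 12.80 and 12.56 against 12.12 and 12.12 and did not pass the test (change 0.56, SE 0.20, adjusted p = 0.548).

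Nitrogen disposal and methyl group metabolism had raised members and no lowered one by limma. In the urea cycle 3 of 11 genes rose, with a list median of 0.20, and 4 members had an unadjusted p below 0.05 with a higher and 2 with a lower value at the peak. Slc25a15, the mitochondrial ornithine carrier, read 10.41 and 10.12 against 8.07 and 7.58 in VEH (change 2.44, SE 0.30, adjusted p = 0.00352). Ass1, argininosuccinate synthase, rose by 1.84 (SE 0.29, adjusted p = 0.0112). Cps1, the entry enzyme of the cycle, read 11.47 and 11.70 against 10.78 and 10.66 and was not called (change 0.86, SE 0.23, adjusted p = 0.156). Of 17 genes of the methionine cycle and cysteine 2 rose. Bhmt, which remethylates homocysteine with betaine, rose by 1.61 (SE 0.23, adjusted p = 0.00714), and Mat1a, which makes S-adenosylmethionine in hepatocytes, by 1.47 (SE 0.23, adjusted p = 0.0108). The list had a median of -0.01, with 6 members higher and 1 lower by unadjusted p. Its share called, 11.8%, was near the 8.03% of the upper 10% of genes by mean value. Slc38a2, a sodium-coupled transporter of neutral amino acids, was the 1 called gene of 20 amino acid transporters, at 10.21 and 9.99 against 8.01 and 7.87 (change 2.16, SE 0.29, adjusted p = 0.00554).

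Several raised genes belong to inflammatory signalling or the acute phase response. Inflammatory signalling and cytokine receptors held 4 raised and 1 lowered gene of 29, with a median of 0.03. The raised members were Cxcl10, Il1r1, Il6r and Nfkbia, which is given above, and Lcn2 is not a member. Cxcl10, a chemokine that attracts T cells, read 6.76 and 6.56 at PEAK_140 against 3.45 and 2.92 in VEH (change 3.48, SE 0.48, adjusted p = 0.00611). Il1r1, the receptor of interleukin 1, read 8.95 and 9.51 against 7.39 and 5.92 (change 2.57, adjusted p = 0.02). Il6r, the receptor subunit for interleukin 6, rose by 2.02 (SE 0.35, adjusted p = 0.0196). Lcn2 encodes lipocalin 2, which binds bacterial siderophores and is also known as an acute phase gene. It read 6.45 and 6.36 at the peak against 2.73 and 2.35 with vehicle (change 3.87, SE 0.78, adjusted p = 0.0437). Orm1 encodes the plasma protein orosomucoid and was the 1 raised gene of 23 acute phase and plasma carrier genes. Its values were 8.90 and 9.43 against 6.34 and 5.65 (change 3.17, SE 0.45, adjusted p = 0.0069). Kng1, kininogen, the 1 called gene of 40 in complement and coagulation, read 10.83 and 11.69 against 9.69 and 9.37 (change 1.73, SE 0.31, adjusted p = 0.0232). The list as a whole had a median of -0.31, with 28 of 40 members below 0, and 10 lower and 2 higher by unadjusted p. Genes in the upper 10% by mean value were near this, with a median of -0.24 and 1111 of 1657 below 0. At CONS_140 against VEH the changes were 2.58 for Il6r (limma adjusted p = 0.00623) and 2.72 for Nfkbia (adjusted p = 0.00443). Those of Il1r1 (1.66, adjusted p = 0.206) and Orm1 (1.57, adjusted p = 0.251) did not pass. Values of Cxcl10, Lcn2 and Kng1 in the 4 libraries of constant CORT lay near those of VEH. Lcn2 lay between 2.21 and 2.87 there, Kng1 between 9.44 and 9.81 and Cxcl10 between 2.44 and 3.63. The NADIR_180 libraries of Lcn2 split, at 2.89 and 6.31, and those of Kng1 were both high, at 11.04 and 11.10. Those of Il1r1, at 8.72 and 8.77, and Orm1, at 7.89 and 8.46, also lay above both VEH libraries. These nadir changes against VEH had adjusted p of 0.59 for Il1r1 and 0.495 for Orm1. The direct contrast of PEAK_140 with NADIR_180 did not call Il1r1, Orm1 or Kng1, with differences of 0.48, 0.99 and 0.19. Cxcl12, a chemokine of the stroma, was the lowered member, at 4.41 and 4.01 against 8.55 or more in both VEH libraries (change -4.56, SE 0.53, adjusted p = 0.00314). Ttr, the plasma carrier of thyroxine, was the lowered acute phase and carrier gene (change -1.73, SE 0.26, adjusted p = 0.0101). The share called in the acute phase and carrier list, 8.70%, was near the 8.03% of the upper 10% of genes by mean value.

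A PEAK_140 GR peak lay close to the start of several of these genes, and their promoters are shown because the binding was measured there. Promoter sequences, of 250 b before to 50 b after the start, came from RefSeq on GRCr8, on which starts may differ from those of rn6, and were matched for 46 of the 63 raised genes. The motifs were chosen with the results known and were searched on both strands. The palindromic element of GR, GNACA and TGTNC with 3 bases between them (N, any base), was found in 0.422% of 27457 promoters and in 1 of the 46, that of Orm1. The hexamer AGAACA was found in 20.1% of all promoters and in 3 of the 46, those of Lpin1, Upp2 and Mat1a. Capitals mark these motifs. The match in Orm1 began 130 b before the start, and that in Upp2, a uridine phosphorylase chosen for its GR peak after its values were seen, began 111 b before it. Upp2 rose by 2.70 (SE 0.37, adjusted p = 0.00586). Tdo2 held neither run of letters. The centre of the nearest PEAK_140 GR peak on rn6 lay 142 b downstream of the start in Orm1, 71 b upstream in Upp2 and 199 b upstream in Tdo2.
Orm1 (chr5:81788259-81788558, plus strand, GRCr8): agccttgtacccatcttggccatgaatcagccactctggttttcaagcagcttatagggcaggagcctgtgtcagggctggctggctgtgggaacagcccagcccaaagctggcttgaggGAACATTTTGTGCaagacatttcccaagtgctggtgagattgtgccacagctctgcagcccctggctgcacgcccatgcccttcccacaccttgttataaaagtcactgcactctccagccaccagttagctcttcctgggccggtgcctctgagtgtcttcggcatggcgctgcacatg
Upp2 (chr3:63681576-63681875, plus strand, GRCr8): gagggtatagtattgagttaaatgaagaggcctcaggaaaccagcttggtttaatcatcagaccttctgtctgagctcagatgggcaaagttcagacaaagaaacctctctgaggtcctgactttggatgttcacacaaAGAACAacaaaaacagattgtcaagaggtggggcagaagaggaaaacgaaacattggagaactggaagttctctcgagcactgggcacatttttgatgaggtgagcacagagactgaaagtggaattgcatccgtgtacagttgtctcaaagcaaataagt
Tdo2 (chr2:169585537-169585836, minus strand, GRCr8): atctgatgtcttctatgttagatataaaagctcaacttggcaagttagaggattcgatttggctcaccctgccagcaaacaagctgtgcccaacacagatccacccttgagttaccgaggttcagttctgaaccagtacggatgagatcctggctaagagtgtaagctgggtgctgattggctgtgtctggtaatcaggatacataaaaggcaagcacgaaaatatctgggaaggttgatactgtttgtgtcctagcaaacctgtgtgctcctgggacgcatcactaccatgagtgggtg

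Further genes with large rises shared no list. Lpin1 encodes lipin 1, a phosphatidate phosphatase of triglyceride synthesis (chr6:41832817-41842817). It read 11.24 and 10.95 at PEAK_140 against 7.53 and 5.85 in VEH, a change of 4.40 (SE 0.47, adjusted p = 0.00156). The 2 VEH libraries were farther apart than the 2 PEAK_140 libraries but did not overlap them. Slc25a32, the mitochondrial carrier of folate and FAD, read 7.92 and 8.04 against 5.51 and 2.94 (change 3.76, SE 0.66, adjusted p = 0.0214). Pfkfb1, the liver enzyme that makes and degrades fructose 2,6-bisphosphate, was the 1 called gene of 21 in glycolysis and hexose uptake. It read 7.43 and 7.35 against 4.57 and 3.79 (change 3.20, SE 0.34, adjusted p = 0.00156). Por, the reductase that supplies electrons to microsomal cytochromes P450, read 9.37 and 9.34 against 6.44 and 5.62 (change 3.33, SE 0.37, adjusted p = 0.00196). Cyp2j10, a cytochrome P450, read 8.35 and 8.52 against 6.13 and 2.90 (change 3.92, SE 0.76, adjusted p = 0.0365). Its VEH libraries spanned more than the distance from the higher of them to the peak. Usp2, a deubiquitinating enzyme, rose by 3.51 (SE 0.51, adjusted p = 0.00771) and the zinc finger gene Zfp354a by 3.91 (SE 0.36, adjusted p = 0.00121). AABR07044148.1, listed by its clone name, rose by 4.18 (SE 0.59, adjusted p = 0.00707).

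**Figure D2:**
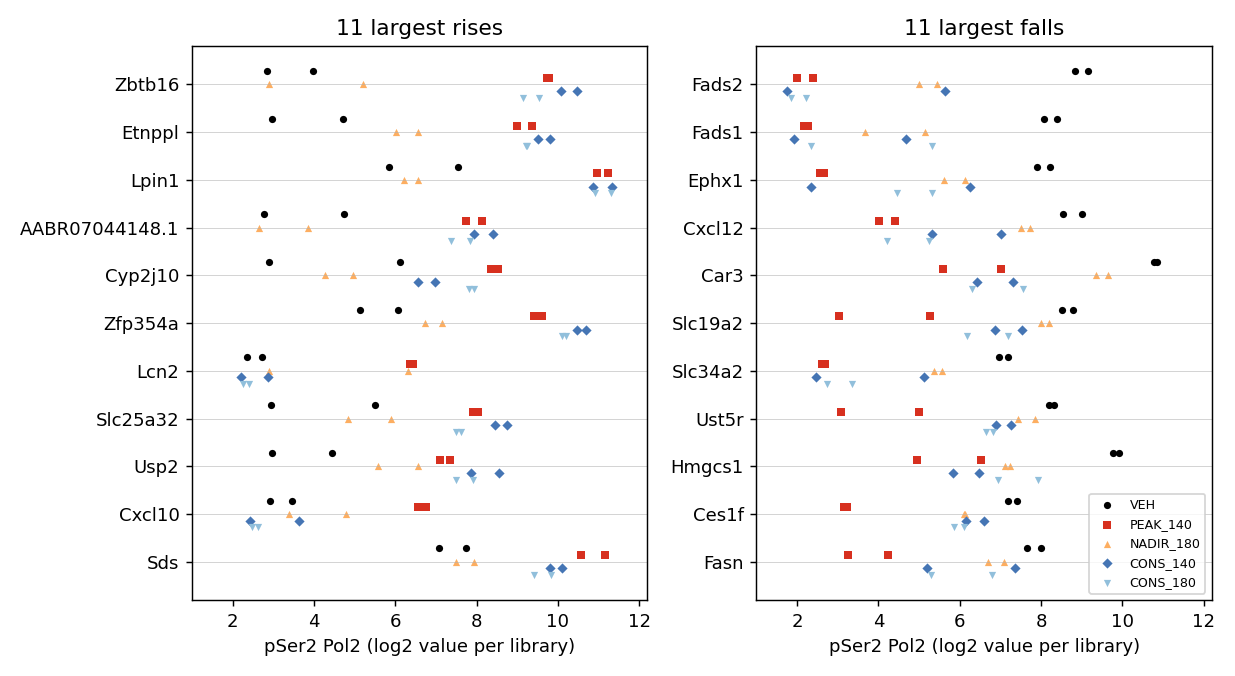
pSer2 Pol2 log2 value in each of the 10 libraries (x axis) for the 11 genes with the largest rise (left) and the 11 with the largest fall (right) at PEAK_140 against VEH (y axis, genes). Each point is 1 library, with colour and shape by group. Red squares (PEAK_140) and black circles (VEH) do not overlap in any of these genes, as in all called genes and in 16.6% of all genes tested. The CONS points lie beside the PEAK_140 points for Zbtb16 and Lpin1 and beside the VEH points for Lcn2 and Cxcl10.

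Sterol synthesis and uptake had the most lowered members, 8 of 34, with 1 raised, a list median of -0.76 and 29 of 34 members below 0. Over all genes tested the median was -0.05, and in the upper 10% by mean value it was -0.24. Unadjusted p lay below 0.05 for 15 members with a lower and 2 with a higher value. Hmgcs1, the synthase that makes HMG-CoA for the mevalonate pathway (chr2:52431601-52441601), read 4.94 and 6.52 at PEAK_140 against 9.92 and 9.77 in VEH. Its change was -4.12 (SE 0.51, adjusted p = 0.00369), with the PEAK_140 libraries apart from each other but far below VEH. Cyp51, the lanosterol demethylase, read 3.02 and 2.99 against 6.84 and 6.28 (change -3.56, adjusted p = 0.034). Fdps and Fdft1, the synthases of farnesyl diphosphate and squalene, changed by -3.30 (SE 0.61, adjusted p = 0.0266) and -2.56 (SE 0.40, adjusted p = 0.0111). Insig2, an anchor that retains the sterol-sensing SREBP complex in the endoplasmic reticulum, changed by -3.04 (SE 0.31, adjusted p = 0.00128), with 6.69 and 6.75 against 9.93 and 9.59. Sc5d and Nsdhl, enzymes of the late steps, changed by -2.67 (SE 0.39) and -2.14 (SE 0.36).

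Promoters of 3 lowered sterol genes are shown because the genes fell together. Promoters were matched for 74 of 105 lowered genes and for 6 of the 8 sterol genes. TCACNCCAC, a form of the sterol regulatory element, was found in 1.13% of all promoters, in 1 of the 74 (Ccdc38) and in 0 of the 6, and no match says only that these letters are not in the window. CCAAT, the core of the box bound by NF-Y and here marked in capitals on either strand, was found in 37.7% of all promoters, in 34 of the 74 (45.9%) and in 5 of the 6 (83.3%). Among the 46 raised genes 20 (43.5%) held it. The matches began 188 and 133 b before the start in Hmgcs1, 130 and 85 b before it in Fdps, and between 208 and 65 b before it in Nsdhl, which held 5. The motifs do not overlap each other.
Hmgcs1 (chr2:53382054-53382353, plus strand, GRCr8): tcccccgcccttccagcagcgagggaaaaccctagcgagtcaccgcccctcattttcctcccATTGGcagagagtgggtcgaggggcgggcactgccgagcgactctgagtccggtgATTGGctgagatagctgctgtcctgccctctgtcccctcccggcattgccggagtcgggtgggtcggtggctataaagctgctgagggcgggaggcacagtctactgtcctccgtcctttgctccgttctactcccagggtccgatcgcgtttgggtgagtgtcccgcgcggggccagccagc
Fdps (chr2:176804767-176805066, minus strand, GRCr8): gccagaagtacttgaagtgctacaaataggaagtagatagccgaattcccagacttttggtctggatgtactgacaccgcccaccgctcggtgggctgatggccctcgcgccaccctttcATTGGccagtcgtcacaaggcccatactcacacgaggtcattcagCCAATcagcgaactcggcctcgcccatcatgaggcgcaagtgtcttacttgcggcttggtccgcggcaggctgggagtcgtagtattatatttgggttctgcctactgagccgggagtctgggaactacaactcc
Nsdhl (chrX:155817110-155817409, plus strand, GRCr8): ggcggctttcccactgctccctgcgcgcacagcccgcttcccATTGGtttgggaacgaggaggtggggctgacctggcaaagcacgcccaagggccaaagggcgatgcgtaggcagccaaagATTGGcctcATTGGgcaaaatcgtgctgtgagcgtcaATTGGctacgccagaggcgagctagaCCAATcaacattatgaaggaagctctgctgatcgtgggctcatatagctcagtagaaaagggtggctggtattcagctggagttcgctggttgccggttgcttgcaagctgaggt

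Fatty acid synthesis and desaturation held 5 lowered and 0 raised genes of 22, with a list median of -0.29. By unadjusted p 8 were lower and 1 was higher. The 2 largest falls of all called genes were the neighbouring desaturases of polyunsaturated fatty acids. Fads2 (chr1:226142524-226152524) read 2.38 and 2.01 at PEAK_140 against 9.16 and 8.85 in VEH, a change of -6.81 (SE 0.88, adjusted p = 0.0046). Fads1 (chr1:226234074-226244074) read 2.26 and 2.17 against 8.40 and 8.08, a change of -6.03 (SE 0.95, adjusted p = 0.0114). Fasn, fatty acid synthase, read 3.25 and 4.22 against 8.01 and 7.65 (change -4.09, SE 0.67, adjusted p = 0.0146). Scd, stearoyl-CoA desaturase, changed by -3.08 (SE 0.55, adjusted p = 0.023) and Acsl1, which activates long-chain fatty acids, by -2.01 (SE 0.29, adjusted p = 0.00714). Acaca, acetyl-CoA carboxylase, read 4.29 and 4.34 against 4.38 and 4.32 (change -0.04, SE 0.27). In triglyceride metabolism, 2 of 28 genes were lowered beside the rise of Lpin1. Angptl8, a secreted inhibitor of lipoprotein lipase, read 5.35 and 5.78 against 8.49 and 8.58 (change -2.97, SE 0.38, adjusted p = 0.00423). Gpam, which acylates glycerol 3-phosphate, changed by -2.06 (SE 0.41, adjusted p = 0.0391). Fatty acid oxidation and ketogenesis had 3 lowered and 0 raised genes of 28, with a median of -0.52 and unadjusted counts of 8 lower and 2 higher. The share called was 10.7% in this list and in triglyceride metabolism, near the 8.03% of the upper 10% of genes by mean value. Fabp1, the liver fatty acid binding protein, read 7.14 and 7.15 against 10.41 and 10.33 (change -3.23, SE 0.43, adjusted p = 0.00544). Bdh1, of ketone body synthesis, and Hadh, of beta-oxidation, changed by -2.24 and -1.85. Cpt1a, the gate of mitochondrial fatty acid entry, read 8.26 and 7.94 against 8.26 and 7.38 (change 0.29, SE 0.38).

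Bile acid synthesis and transport held 5 lowered and 1 raised gene of 21, with a median of -0.65. Slco1b2, a basolateral uptake carrier for bile acids and drugs, read 6.47 and 6.23 at PEAK_140 against 8.67 and 8.51 in VEH (change -2.24, SE 0.30, adjusted p = 0.00586). Akr1d1, the steroid 5-beta-reductase of bile acid synthesis, changed by -2.58 (SE 0.40, adjusted p = 0.0111), and its PEAK_140 libraries read 6.21 and 7.52. Slco1a4, another uptake carrier, Abcc2, the canalicular export pump for conjugates, and Baat, which conjugates bile acids to amino acids, changed by -2.21, -1.66 and -1.29. Cyp27a1, the sterol 27-hydroxylase, was raised, at 8.89 and 8.81 against 7.36 and 6.62 (change 1.86, SE 0.36, adjusted p = 0.0366). Cyp7a1, the rate-limiting hydroxylase, read 8.57 and 9.46 against 8.33 and 7.73 and was not called (change 0.98, SE 0.39, adjusted p = 0.722).

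Drug and xenobiotic enzymes were called in both directions. The list of cytochromes P450 of families 1 to 4, which also holds the reductase Por, had 6 lowered genes of 34 and 1 raised, Por, with a median of -0.51. The lists of this paragraph are not complete, and called genes outside them included Cyp2j10 (raised), Ugt1a7c and Gsta5 (both lowered). The lowered genes were Cyp2a1 (change -3.64), Cyp2c6v1 (-3.27), Cyp2c13 (-2.51), Cyp4f1 (-2.35), Cyp2c12 (-2.17) and Cyp3a18 (-2.04). Cyp2a1 and Cyp2c6v1 were uneven at the peak, at 3.12 and 5.75 and at 3.38 and 5.83, while Cyp3a18 read 6.00 and 6.22 against 8.12 and 8.18. Members of these subfamilies are near copies of each other, so that tags may have been shared between them. Of 23 conjugating enzymes and epoxide hydrolases 3 were lowered and 1 raised. Ephx1, the microsomal epoxide hydrolase, read 2.65 and 2.57 against 8.22 and 7.90 (change -5.45, SE 0.90, adjusted p = 0.0149). The sulfotransferase Sult2a2 and the glutathione transferase Gstm1 changed by -2.82 and -1.82. The glucuronosyltransferase Ugt2a3 rose by 3.06 (SE 0.43, adjusted p = 0.00681), from 4.22 and 2.79 to 6.42 and 6.71. In mRNA at 180 min, edgeR called 3 of the 34 genes of the P450 list as raised and 0 as lowered (median change 0.30). Of 20 conjugating enzymes 2 were raised and 0 lowered (median 0.14). Over all genes with both measures, edgeR called 2.05% as raised and 2.37% as lowered. The difference between the assays was not tested.

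The remaining genes among the 12 largest falls were transporters and enzymes of other pathways. Car3, a cytosolic carbonic anhydrase (chr2:88126667-88135410), read 5.58 and 7.03 at PEAK_140 against 10.79 and 10.85 in VEH (change -4.52, SE 0.54, adjusted p = 0.00318). Slc19a2, a thiamine transporter, read 3.03 and 5.28 against 8.79 and 8.52 (change -4.50, SE 0.62, adjusted p = 0.00611). Slc34a2, a sodium-phosphate cotransporter, read 2.68 and 2.62 against 7.19 and 6.97 (change -4.43, SE 0.63, adjusted p = 0.00714). Ust5r, named for a putative membrane transporter, read 3.07 and 4.99 against 8.20 and 8.32 (change -4.23, SE 0.52). Ces1f, a carboxylesterase, read 3.23 and 3.16 against 7.40 and 7.20 (change -4.11, SE 0.31, adjusted p = 0.00121). In single genes of other lists, the Krueppel-like factor Klf12 changed by -3.29 (SE 0.39, adjusted p = 0.00318) and Alad, of heme synthesis, by -3.13 (SE 0.58, adjusted p = 0.0268). Ugp2, which makes UDP-glucose for glycogen, changed by -2.25 (SE 0.41, adjusted p = 0.0255).

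**Figure D3:**
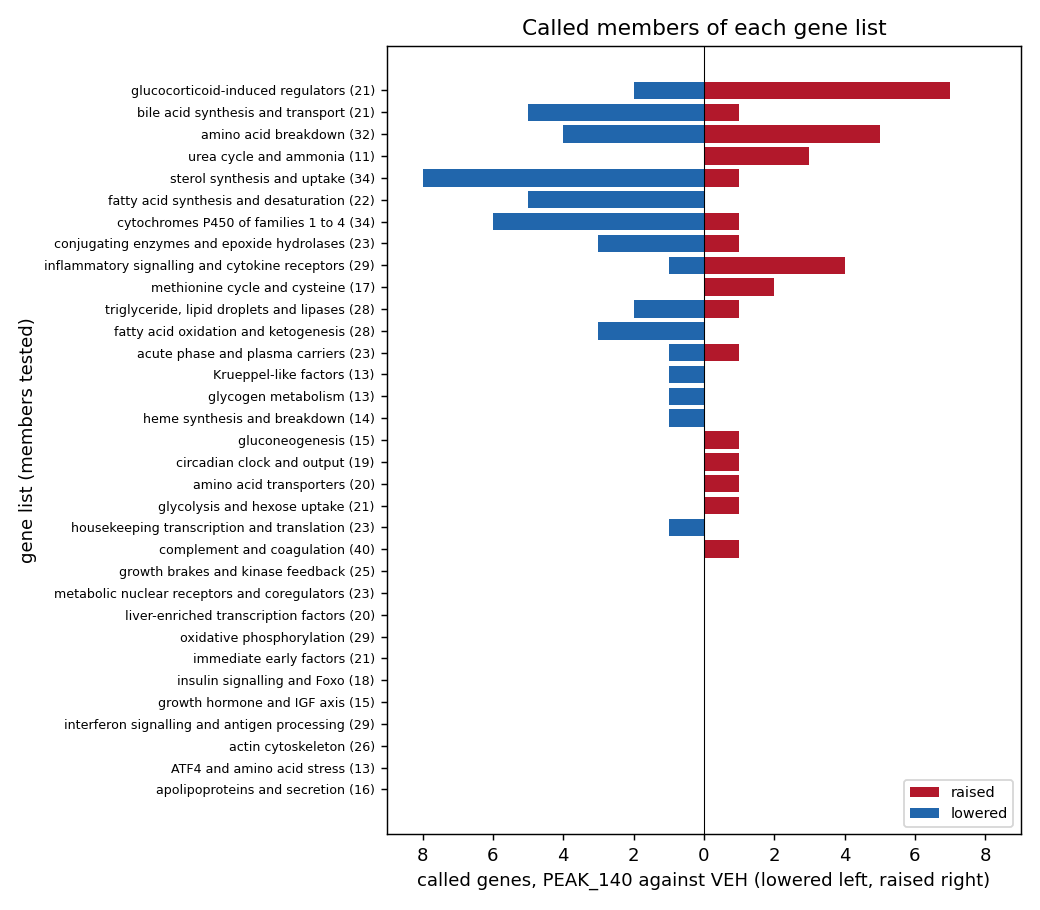
Number of called genes at PEAK_140 against VEH (x axis, lowered to the left in blue, raised to the right in red) in each of 33 gene lists (y axis, with the number of members tested). Lists are ordered by the share of members called. Bars run to the right for glucocorticoid-induced regulators (7 raised) and to the left for sterol synthesis and uptake (8 lowered), and 11 lists have no bar.

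Of the 703 genes in the 33 lists 29 were raised and 44 lowered. By unadjusted p below 0.05, 233 of all 16568 genes tested were higher and 575 lower at PEAK_140. In the upper 10% by mean value the counts were 163 and 285 of 1657. No member was called by limma in 11 lists, which held 230 genes tested. Of these genes, 12 had an unadjusted p below 0.05 with a higher and 19 with a lower value at PEAK_140. These lists were immediate early factors, growth brakes and kinase feedback, the growth hormone and IGF axis, insulin signalling and Foxo, liver-enriched transcription factors, metabolic nuclear receptors and coregulators, ATF4 and amino acid stress, apolipoproteins and secretion, interferon signalling and antigen processing, the actin cytoskeleton and oxidative phosphorylation. Their members with the highest mean value were Jun (change -0.98, SE 0.32), Errfi1 (0.37, SE 0.18), Igfbp1 (1.23, SE 0.27), Pik3r1 (0.87, SE 0.32), Hnf4a (0.16, SE 0.27), Rxra (0.51, SE 0.33), Atf4 (-0.56, SE 0.32), Apob (-1.21, SE 0.27), Stat2 (0.45, SE 0.36), Actb (-0.81, SE 0.36) and Ndufs7 (0.20, SE 0.37). Igfbp1 and Apob came closest to the threshold, with adjusted p of 0.0734 and 0.0771. Among other uncalled rate-limiting genes, Pck1, of gluconeogenesis, read 13.08 and 12.53 against 12.45 and 12.42 (change 0.37, SE 0.24). Alas1, of heme synthesis, changed by 0.95 (SE 0.28, adjusted p = 0.26) and Gys2, glycogen synthase, by -0.29 (SE 0.31).

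The called genes were then set beside the other CORT groups. Against VEH, the 63 raised genes had median log2 changes of 2.67 in PEAK_140 and 0.56 in NADIR_180, with 2.44 in CONS_140 and 1.87 in CONS_180. For the 105 lowered genes the medians were -2.31, -0.54, -0.99 and -1.21. These comparisons share the 2 VEH libraries and the genes were chosen at PEAK_140, so the medians are given side by side and were not compared. The direct contrast of PEAK_140 with NADIR_180 called 43 genes as higher at the peak (0.260% of genes tested) and 41 as lower (0.247%). Got1 was above its nadir values of 7.92 and 7.27 by 3.11 (adjusted p = 0.00301) and Ugt2a3 above 2.79 and 2.70 by 3.82 (adjusted p = 0.00301). Klf12 was below its nadir values of 6.92 and 7.08 by 3.76 (PEAK_140 minus NADIR_180 -3.76, adjusted p = 0.00301) and Angptl8 differed by -3.14 (adjusted p = 0.00423). Usp2 and Per1 did not pass this test, with differences of 1.16 and 1.03. Among genes without a call against VEH, Tat was 1.28 higher at the peak than at the nadir (adjusted p = 0.016), Cps1 1.29 (adjusted p = 0.0329) and Alas1 1.84 (adjusted p = 0.0145). Nadir values of these genes lay below VEH, with uncalled changes of -0.72 for Tat, -0.43 for Cps1 and -0.89 for Alas1. This also held for Got1 (-1.28) and Ugt2a3 (-0.76), so these differences are not rises at the peak alone. With each library centred on its median 102 genes were higher and 108 lower, in the upper 50% of regions by mean 73 and 79, and at an adjusted p below 0.01 24 and 12. With libraries left out the counts were 1 higher and 0 lower without PEAK_140 replicate 1 or without NADIR_180 replicate 1, 21 and 23 without PEAK_140 replicate 2, 25 and 75 without NADIR_180 replicate 2, and 0 in a fit of the 4 libraries alone, with 5134 regions at an unadjusted p below 0.05.

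PEAK_140 and CONS_140 differed in 5 genes by limma, 1 higher at the peak (0.00604% of genes tested) and 4 lower (0.0241%), with 3336 regions at an unadjusted p below 0.05. Cxcl10 was higher at the peak, by 3.63 (SE 0.48, adjusted p = 0.0473). Ces1f (difference -3.18, adjusted p = 0.0221), Klf12 (-2.88, adjusted p = 0.049), Insig2 (-2.49, adjusted p = 0.0473) and Slco1b2 (-2.31, adjusted p = 0.0473) were lower. Slco1b2 read 8.62 and 8.70 at CONS_140 and 8.23 and 8.36 at CONS_180, close to its VEH values. The number depended on the processing, with 116 genes after median centring of the libraries, 115 in the upper 50% of regions by mean and 21 without the trend. A block by replicate number, which the VEH libraries do not carry, gave 218. With regions of 1 kb or more it was 66 and with protein-coding regions 50, both chosen after seeing the data. Without CONS_140 replicate 2, which leaves the library that stood apart, the contrast called 3936 genes, and without replicate 1 it called 7, of which 1 was among the 5. It called 0 genes without either PEAK_140 library, with 2347 (replicate 1 left out) and 1890 (replicate 2 left out) regions at an unadjusted p below 0.05, and 0 in a fit of the 4 libraries alone, with 2021 such regions.

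Messenger RNA was measured in other libraries, at 180 min of the pulsatile infusion, and gave an independent readout of the called genes. Counts of 3 pulsatile CORT (PULS CORT) and 3 pulsatile vehicle (PULS VEH) libraries were compared with edgeR, and of 14092 genes tested 252 (1.79%) were raised and 344 (2.44%) lowered. Of the 63 genes raised in pSer2 Pol2, 62 were tested and 43 (69.4%) were raised in mRNA, with a median log2 change of 1.20. No gene of the 62 was lowered by edgeR or by DESeq2, and 53 had an unadjusted p below 0.05 in edgeR with a higher and 0 with a lower level. Of the 105 lowered genes 99 were tested, 19 (19.2%) were lowered in mRNA and 1, Oat, was raised, with a median of -0.33. By unadjusted p in edgeR 45 of the 99 were lower and 2 were higher. Over all genes with both measures the shares were 2.05% raised and 2.37% lowered, with a median of 0.01. Lpin1 stood at 820, 637 and 833 CPM in PULS CORT and 88.8, 76.0 and 112 CPM in PULS VEH (change 3.05, SE 0.25, adjusted p = 4.05e-06). Etnppl stood at 255, 212 and 226 CPM against 44.7, 34.3 and 30.5 CPM (change 2.66, SE 0.17, adjusted p = 3.47e-07). Usp2 was low in both groups, at 32.6, 31.6 and 22.8 CPM against 2.71, 0.57 and 3.73 CPM. In each of these 3 genes the groups did not overlap. Raised genes without an mRNA call included Lcn2 (mRNA change 0.48, SE 2.44), Il1r1 (-0.29, SE 0.20), Kng1 (-0.40, SE 0.50) and Orm1 (0.76, SE 0.47). Lcn2 mRNA was near the floor, at 1.35, 0.49 and 2.48 CPM in PULS CORT against 1.27, 0.75 and 1.04 CPM in PULS VEH. Cxcl10 was the raised gene that was not tested in mRNA. Among lowered genes, Cxcl12 stood at 56.6, 52.3 and 56.7 CPM against 132, 116 and 102 CPM (change -1.08, SE 0.12, adjusted p = 0.000102), and Klf12 (-1.35), Slc34a2 (-1.54) and Slc19a2 (-0.99) were also lowered. The 8 lowered sterol genes had mRNA changes of -0.88 (Hmgcs1, SE 0.30, adjusted p = 0.0975) to -0.10 (Sc5d, SE 0.12), and the lowest adjusted p among them was 0.081, for Nsdhl. Fads2 changed by -0.59 (SE 0.20, adjusted p = 0.0999) and Fads1 by -0.20 (SE 0.20). Oat stood at 506, 435 and 468 CPM against 330, 255 and 284 CPM (change 0.70, SE 0.14, adjusted p = 0.00944), with a lower pSer2 Pol2 level at the peak. The part of mRNA stability in these differences was not tested. The counts over all genes were 166 raised and 185 lowered without PULS CORT replicate 1, 171 and 165 without PULS CORT replicate 2, and 164 and 236 without PULS VEH replicate 2.

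**Figure D4:**
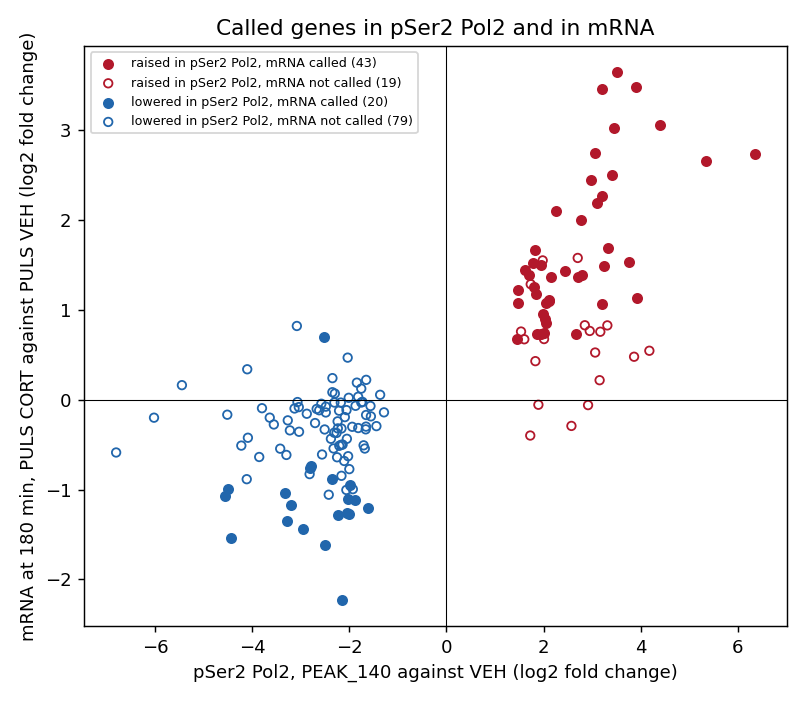
Log2 fold change of pSer2 Pol2 at PEAK_140 against VEH (x axis) and of mRNA at 180 min in PULS CORT against PULS VEH (y axis) for the 161 called genes with both values. Filled points were called in mRNA and open points were not, with raised genes in red and lowered genes in blue. Of the raised genes 43 are filled and lie above 0, and of the lowered genes 20 are filled, 19 of them below 0.

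GR binding at the pulse peak was measured in other ChIP libraries, with antibodies to GR. From the start of the region shown to the centre of the nearest of 3210 PEAK_140 GR peaks, the median distance was 3.35 kb for raised genes, 86.2 kb for lowered genes and 242 kb for all genes tested. A peak lay within 10 kb of 46 (73.0%) of the raised, 20 (19.0%) of the lowered and 5.98% of all genes. Within 50 kb the numbers were 61 (96.8%), 38 (36.2%) and 18.9%. Since called genes were mostly high in pSer2 Pol2, the 1524 uncalled genes in the upper 10% by mean value are given beside them, with a median of 48.8 kb, 24.9% within 10 kb and 50.4% within 50 kb. At the GR region nearest to the start of Orm1 (chr5:79179238-79179865, rn6), log2 GR values were 6.61 and 5.94 at PEAK_140, against -0.45 and -0.65 with vehicle. At that of Got1 (chr1:263269863-263270488) they were 7.11 and 7.93 against 3.43 and 3.17, and at that of Upp2 5.60 and 5.01 against -0.64 and 0.46. The region of Tdo2 read 4.22 and 3.67 against -0.84 and -1.01. The regions lie nearest to peaks called in PEAK_140 and the genes were chosen with results known, so that these values describe the sites and test nothing. The nearest peak to Etnppl lay 18.5 kb and that to Zbtb16 11.5 kb downstream of the start, and that to Zfp354a 68.2 kb upstream. Lowered genes with a peak within 1 kb were Ces1f (280 b downstream), Aox1 (227 b upstream), Cyp4f1 (410 b upstream) and Pdk4 (989 b upstream). The region of Ces1f read 2.32 and 2.31 in PEAK_140 and -0.73 and -0.83 in VEH. The peak of Hmgcs1 lay 238 kb and that of Fdps 315 kb upstream.

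**Figure D5:**
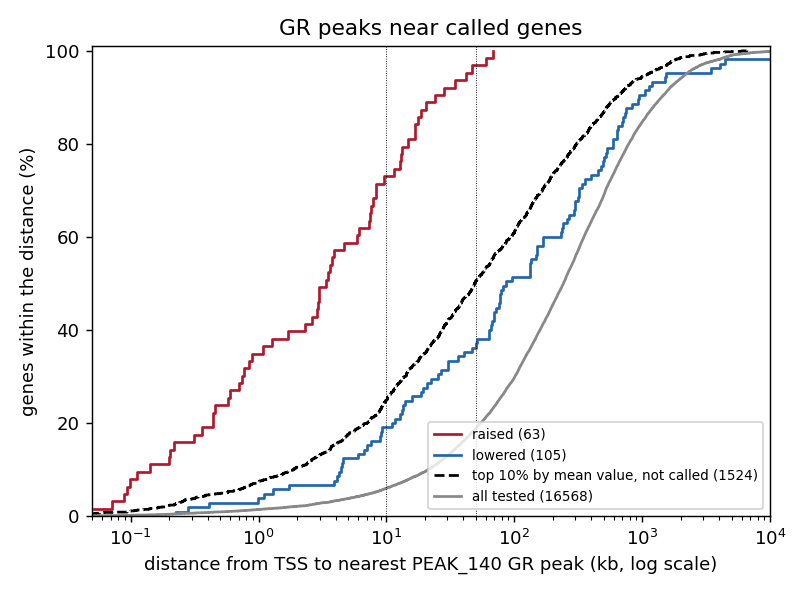
Share of genes (y axis, percent) with a PEAK_140 GR peak within the distance on the x axis (kb from the start, log scale) for raised genes (red), lowered genes (blue), uncalled genes in the upper 10% by mean value (dashed) and all genes tested (grey). Dotted lines mark 10 and 50 kb. The red curve reaches 73.0% at 10 kb and 96.8% at 50 kb, and the blue curve 19.0% and 36.2%, below the dashed curve at 24.9% and 50.4%.

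Some called genes were neighbours. Within 100 kb of each other, 15 called genes formed 7 groups, and within each group the genes moved in 1 direction. Fads2 and Fads1 fell together, as did Hal, Ccdc38 and Amdhd1 on chromosome 7 and Gstm3l and Gstm1 on chromosome 2, and Por rose with Rhbdd2. The region of Ccdc38 overlapped that of Amdhd1, and 6 lowered and 0 raised genes had a region that overlapped one of another gene. ChIP does not give the strand, so tags in overlapping genes cannot be told apart.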

How the data were processed

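The deposited pSer2 Pol2 values were made by the authors, per the submitters' processing notes, from 50 b reads trimmed with Trimmomatic 0.36 and aligned to rn6. For the deposited log2 values the authors removed duplicates, counted tags in gene regions with HOMER 4.9.1, took off those of the input and scaled each library to its total. Regions ran from the annotated start for at most 10 kb, so that levels of different genes are not per length. The authors' own fold changes and p values were not used. The deposited RNA counts were made by the authors with featureCounts 1.6.2 on Rnor_6.0.

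The log2 values of 10 libraries in 5 groups were fitted with limma 3.58.1, with the variance allowed to follow the mean, and p values were adjusted over 38315 regions. A gene without a call is described by its region of highest mean value, as are the medians of lists. RNA counts were tested with edgeR 4.0.16 (quasi-likelihood, TMM, more than 10 reads over 12 libraries), with DESeq2 1.42.0 as the alternative, in R 4.3.3. Figures were drawn with Python 3.11.15 and matplotlib 3.10.9. The code was tested on simulated data.

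Named genes were the 12 largest rises and 12 largest falls, every called member of the 33 lists, and for lists without a call the member with the highest mean value or, in hepatic lists, the best known rate-limiting member. Other genes named were chosen after their values were seen. Members and lists were chosen with earlier results of these data known. Alternatives with regions of 1 kb or more, with protein-coding regions and without CONS_140 replicate 1 were added after seeing the data. RNA replicates of the same number correlated at r = 0.296, 0.374 and 0.199 after group means were removed. Library names carry numbers in separate ranges, whose meaning is not given in the sources used here. In pSer2 Pol2, PEAK_140 replicate 1 (1840) and both NADIR_180 libraries (1838 and 1839) fell in the lower range. PEAK_140 replicate 2 (1990), both VEH libraries (1993 and 1996) and the CONS libraries (2003 to 2012) fell in the higher range. The part of these ranges in the contrasts was not tested.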

Additional observations from a re-analysis of the deposited data

Results flagged for a closer look

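Among the genes with the largest rise against VEH, these were higher at PEAK_140 than at NADIR_180 in the direct test by limma. The log2 differences were 5.70 for Zbtb16, 2.88 for Etnppl, 4.71 for Lpin1, 4.68 for AABR07044148.1, 2.56 for Zfp354a, 2.57 for Cxcl10, 3.15 for Sds and 3.00 for Tsc22d3. Among those with the largest fall, Cxcl12 (-3.40), Car3 (-3.20), Slc19a2 (-3.94), Ust5r (-3.62) and Ces1f (-2.93) were lower at PEAK_140 than at NADIR_180. Cxcl10 was higher at PEAK_140 than at CONS_140, by 3.63, and Ces1f differed by -3.18 in that test.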

How the results depend on the processing

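The counts depended on the libraries and on the shared spread, and 0 called genes of the named set changed direction where they were tested, which was 64 of 83 with 1 region per gene, 82 with regions of 1 kb or more or protein-coding regions, and 83 otherwise. With each library centred on its median, 135 genes were raised and 207 lowered (783 regions), 102 were higher and 108 lower than at NADIR_180, and 116 differed from CONS_140. In the upper 50% of regions by mean these were 102 and 156 (589 regions), 73 and 79, and 115. At an adjusted p below 0.01 they were 28 and 36 (140 regions), 24 and 12, and 0. In fits of the 4 libraries compared they were 0 throughout. With 1 region per gene 158 regions were called and 0 genes differed from CONS_140. Without a trend 57 genes were raised and 89 lowered, 25 of the 83 named calls were lost, and 21 genes differed from CONS_140. Removal of the fold threshold changed 0 calls. With 1 library left out, raised genes ranged from 6 to 42, lowered genes from 4 to 39 and called regions from 19 to 134. Values between these were 13 and 16 for raised genes, 9 and 16 for lowered genes, and 69 and 109 regions. Genes higher than at NADIR_180 ranged from 1 to 25 (with 21 between), lower ones from 0 to 75 (with 23 between), and genes that differed from CONS_140 from 0 to 3936. Without CONS_140 replicate 1, a choice made after seeing the data, 22 genes were raised and 63 lowered (179 regions). With regions of 1 kb or more 66 genes differed from CONS_140 and with protein-coding regions 50, both also chosen after seeing the data. The VEH libraries of pSer2 Pol2 carry no replicate number, so a block by number could join only the CORT groups. In the upper 50% of regions by mean, the difference between the replicates of a group correlated between pairs of these groups. The values were r = 0.157 to 0.478, and they do not measure how well replicates match. With this block 82 genes were raised and 168 lowered (577 regions), 51 were higher and 66 lower than at NADIR_180, and 218 differed from CONS_140. In mRNA, 1 library left out gave 164 to 219 raised and 165 to 273 lowered genes (with 166 and 185 between), and DESeq2 gave 264 and 334. GR peaks within 10 kb in place of 50 kb changed the share from 96.8% to 73% of raised and from 36.2% to 19% of lowered genes, and merged GR regions gave 45.7% of lowered genes. The cause of these differences was not tested.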

Other observations

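Called genes outside the lists, chosen after their values were seen, included further transporters and secreted or metabolic proteins. Mfsd2a, a carrier of lysophosphatidylcholine, read 11.14 and 10.85 at PEAK_140 against 8.15 and 7.65 in VEH (change 3.09, SE 0.29), and its mRNA was raised by 2.18. Edem1, of the degradation of misfolded glycoproteins, rose by 2.97 (SE 0.28), with an mRNA change of 2.44. Agt, the precursor of angiotensin, rose by 2.67 (SE 0.34), and Map1lc3b, of autophagy, by 2.11 (SE 0.41). In each of these 4 genes the mRNA was called as raised by edgeR.

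Lowered genes outside the lists, also chosen after their values were seen, are given singly and stand for no group. Nfe2l2, the transcription factor NRF2, read 6.96 and 6.81 against 9.30 and 9.24 (change -2.38, SE 0.33), and Cat, catalase, 8.41 and 8.26 against 10.68 and 10.34 (change -2.18, SE 0.29). Their mRNA changes were -0.43 (adjusted p = 0.157) and -0.03 (adjusted p = 0.934). Osgin1, an oxidative stress growth inhibitor, fell by 2.14 (SE 0.28), and its mRNA stood at 15.4, 50.1 and 32.9 CPM in PULS CORT against 155, 141 and 160 CPM in PULS VEH (change -2.23, adjusted p = 0.000306). Gk, glycerol kinase, changed by -3.20 (SE 0.34) in pSer2 Pol2 and by -1.18 in mRNA.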
